A study of Monodelphis domestica with 2 samples.

Results

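Proteoglycans are proteins that carry long sugar chains called glycosaminoglycans. The genes described here encode heparan sulfate core proteins (glypicans and syndecans) and the enzymes that start, extend, sulfate or trim heparan sulfate, chondroitin or dermatan sulfate, keratan sulfate and hyaluronan chains. They were taken by gene symbol alone, with no measured value in the rule: UST and all symbols that begin with NDST, HS2ST, HS3ST, HS6ST, CHSY, CHPF, CSGALNACT, EXTL, XYLT, DSE, HYAL, B3GAT or B4GALT, or with CHST, EXT, SULF, GPC, SDC or HAS followed by a number. The rule found 56 of 30800 genes, of which 11590 had a symbol, so family members listed by identifier only were not analysed here. The B4GALT family also acts on glycoproteins and glycolipids, and the CHST family includes enzymes that act outside glycosaminoglycans.

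Nuclei came from the primary visual cortex (V1) of 2 untreated adult male grey short-tailed opossums (Monodelphis domestica), aged 1.5 years (animal 1) and 2 years (animal 2). Per the labels, nuclei from frozen tissue were sorted for a DNA dye, the suspensions of the 2 animals were prepared in parallel by different experimenters, and each suspension was split over 2 droplet libraries, called A and B here. The values are counts of unique molecular identifiers (UMIs), tags that mark single RNA molecules. They were summed over the nuclei of each animal in each of the 18 deposited subclasses, giving 36 sums, and are stated as CPM, counts scaled to a total of 1000000 UMIs per sum. The subclasses comprised 8 glutamatergic ones (the intratelencephalic IT_A, IT_B, IT_C and IT_D, the layer 5 near-projecting L5NP, the layer 5 pyramidal-tract L5PT, the layer 6 corticothalamic L6CT, and L6b), 5 GABAergic ones (Frem1, Lamp5, Pvalb, Sst and Vip) and 5 non-neuronal ones (astrocytes or Astro, endothelium or Endo, microglia or Micro, oligodendrocytes or OD, and oligodendrocyte precursor cells or OPC).

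The 4 libraries held 32764 labelled nuclei and 51789830 to 65195017 labelled UMIs each, and any pair of libraries shared 16 to 30 barcodes, at most 0.348% of the smaller one. A few small subclasses set the limit of precision. The endothelial sums rested on 29 and 36 nuclei, where 3 UMIs equal 61.8 and 51.9 CPM. L6b held 56 and 53 nuclei, and IT_D held 58 nuclei in animal 1 and 315 in animal 2. Class markers followed the labels: summed levels of SNAP25, SYT1 and RBFOX3 were 3076 to 5893 CPM in neuronal sums and 313 to 1243 CPM in non-neuronal sums, and the oligodendrocyte, OPC, astrocyte, microglia and endothelial lists were highest in their own subclasses. The summed OPC list was also at 851.5 and 909.9 CPM in Pvalb and 964.2 and 944.7 CPM in Sst, against 2814 and 2633 CPM in OPC, where SOX6 made up nearly all of it (means of 877.7 CPM in Pvalb and 950.9 CPM in Sst), while PDGFRA was at 2.78 and 3.20 CPM and CSPG4 at 0.227 and 0.331 CPM, against 984.8 and 29.4 CPM in OPC. The glutamatergic marker SV2B was at a mean of 406.2 CPM in Lamp5, against 34.2 to 54.8 CPM in the other GABAergic subclasses, and the summed GABAergic list was highest in Lamp5 (1787 and 1645 CPM). Markers of layer subclasses separated them less: the L5PT list was as high in L5NP and was at 554.8 and 535 CPM in Lamp5, the L5NP list was highest in Sst, and the L6b list gave at most 92 CPM in any sum, in microglia. The interneuron lists were also shared: for Pvalb only LHX6 was found, at 182 CPM in Pvalb and 320.3 CPM in Sst (means of both animals), and PVALB itself was not analysed here. ADARB2, listed for Vip, Lamp5 and Frem1, was at 1864, 1091 and 2057 CPM in these, so that the summed Lamp5 list was higher in Frem1 and Vip than in Lamp5, and the Vip list was higher in Frem1 than in Vip in animal 2. Singly, SST, VIP and LAMP5 were highest in the subclasses named for them in both animals, whereas FREM1 was at 67.9 CPM in Lamp5 and 62.3 CPM in Frem1. The part of neuronal RNA in low non-neuronal values was not tested. With 2 animals, errors are SD over 2 values, the p-values rest on the spread between these 2 animals, and levels of different genes are not compared, because the counts are not per transcript length.

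In the brain, heparan sulfate proteoglycans bind growth factors and synaptic adhesion proteins at the cell surface, and the position of the sulfates along a chain sets which proteins it binds. Chondroitin sulfate proteoglycans, with hyaluronan, build the perineuronal nets that enclose certain neurons, above all fast-spiking Pvalb interneurons in many mammals. Chain synthesis starts with a linkage sugar on the core protein, proceeds by polymerization, and ends with sulfation in the Golgi, after which sulfatases can edit heparan sulfate outside the cell.

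Of the 56 genes, 50 passed the low-count filter and were tested among 17227 genes. CHST14, GPC2, HAS1, HAS3, HYAL3 and HYAL4 did not pass. Genes that passed only through the subclass where they were high, as HAS2 did through OPC, had to differ between subclasses. The tested genes had a median level over all labelled nuclei of 20.4 CPM against 10.4 CPM for all tested genes. Between glutamatergic subclasses, 33 of 50 differed at an adjusted p under 0.05 (edgeR quasi-likelihood F test over 36 sums, Benjamini-Hochberg over all tested genes), where 37.7% of all genes did. Between GABAergic subclasses 33 of 50 differed, with a background of 32.1%, and between non-neuronal subclasses 42 of 50 differed, with a background of 61.4%. The subclasses were defined by clustering these same nuclei, which the p-values do not take into account. The same subclass was highest in both animals for 33 of the 50 genes, where 52.0% of all tested genes had this property. Those 33 genes peaked in 15 different subclasses, with 5 in OPC, 4 each in Astro and OD, and 3 each in L5PT and Endo, where 6.40%, 12.4%, 11.05%, 1.88% and 14.8% of all such genes peaked. The 3 endothelial peaks rest on few UMIs, with 1 and 1 for B3GAT3, 3 and 2 for B4GALT4, and 3 and 4 for NDST1 in animals 1 and 2. Without IT_D, L6b and Endo, the same subclass was highest in both animals for 38 of the 50 genes and 60.4% of all genes.

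**Figure D1:**
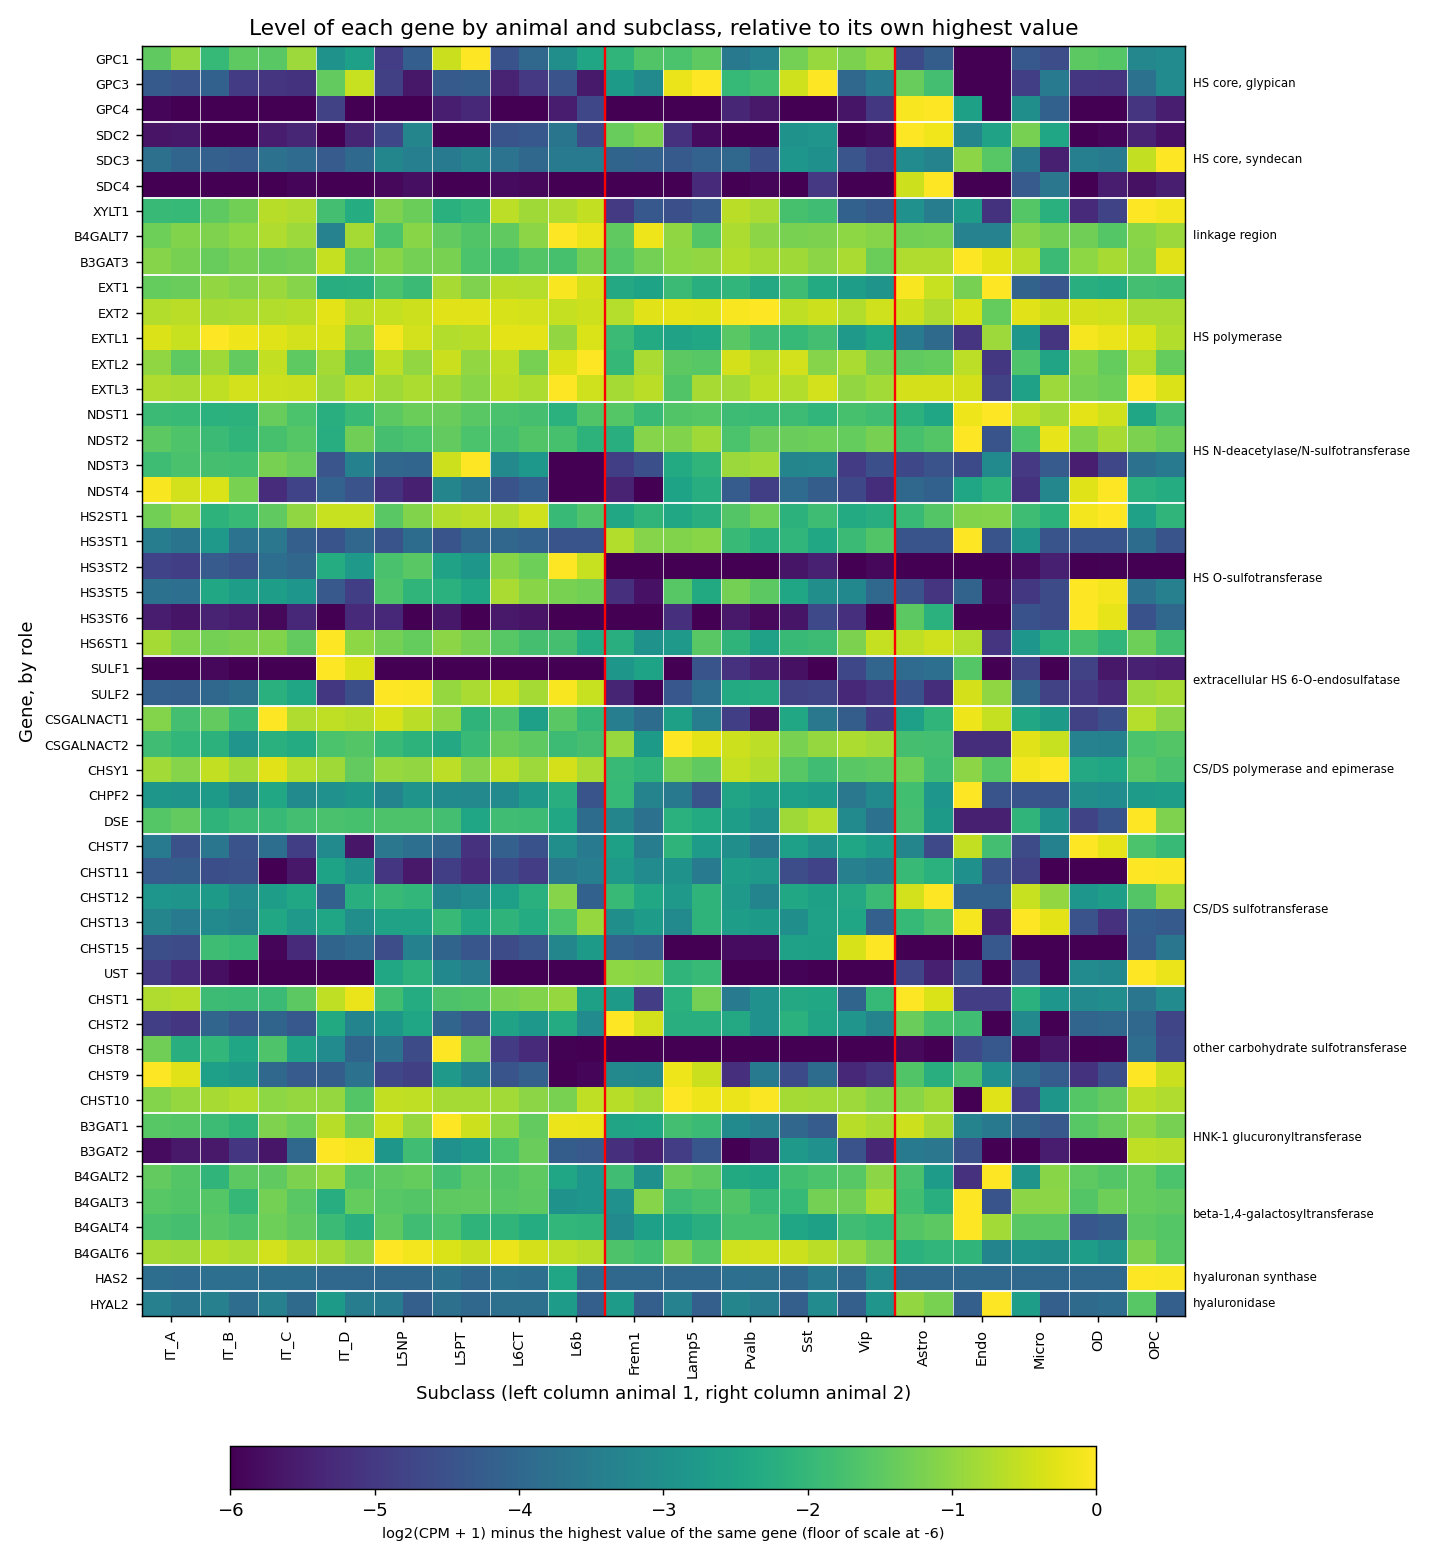
Level of the 50 tested genes (rows, by role) in the 36 sums (columns, animal 1 left and animal 2 right within each subclass), as log2(CPM + 1) minus the gene's own highest value. Red lines separate glutamatergic, GABAergic and non-neuronal subclasses. For 33 of the 50 rows the highest value of each animal lies in the same subclass, and the endothelial columns rest on only 29 and 36 nuclei.

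The heparan sulfate cores GPC4, SDC2 and SDC4 were highest in astrocytes, SDC3 in OPC and GPC1 in L5PT. Glypicans are anchored to the membrane by a lipid and syndecans span it. GPC4, a glypican that astrocytes are known to secrete, measured 125 and 129 CPM in astrocytes of animals 1 and 2, 15.1 and 6.38 CPM in microglia, and at most 3.97 CPM in any neuronal sum. SDC4 measured 93.8 and 128 CPM in astrocytes and at most 3.04 CPM in neuronal sums. SDC2 was likewise highest in astrocytes (407 and 369 CPM), but Frem1 interneurons held 154 and 178 CPM, while the other GABAergic subclasses ranged from 1.82 to 55.2 CPM. Within Sst, SDC2 was highest in the deposited type Sst_3, at 138 and 146 CPM, against 0.701 to 26.2 CPM in the other Sst types. SDC3 was highest in OPC (174 and 257 CPM) and ranged from 12.3 to 26.3 CPM in glutamatergic sums, where the difference between subclasses did not pass the test (adjusted p = 0.0608).

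GPC1 reached 207 and 289.5 CPM in L5PT, 126 and 150 CPM in Vip, 121 and 151 CPM in Sst and 102 and 96.1 CPM in oligodendrocytes, against 11.9 and 17.1 CPM in L6CT, 8.67 and 14.6 CPM in L5NP and 10.6 and 14.6 CPM in astrocytes. L5PT thus lay above, and L5NP and L6CT below, every other glutamatergic sum (adjusted p across glutamatergic subclasses = 3.72e-13). GPC3 was high in Lamp5 (124 and 139.6 CPM), Sst (105 and 141 CPM) and IT_D (51 and 99 CPM) and low in Vip (7.9 and 11.1 CPM). Outside IT_D no glutamatergic sum exceeded 7.02 CPM, and every GABAergic sum lay above that, from 7.9 to 141 CPM. GPC2, which was not tested, stayed at or below 3.52 CPM.

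XYLT1, the xylosyltransferase that places the first sugar of the linkage region on core proteins, measured 2438 and 2257 CPM in OPC, 1489 and 1660 CPM in L6b, 1564 and 1484 CPM in IT_C, 1578 and 1449 CPM in Pvalb and 1617 and 1356 CPM in L6CT. Frem1, Lamp5 and Vip interneurons held 76.7 to 137 CPM, and oligodendrocytes 62 and 88.5 CPM. Pvalb and Sst, at 679.5 to 1578 CPM, lay above these 3 other GABAergic subclasses in both animals (adjusted p across GABAergic subclasses = 9.18e-16). SOX6 of the OPC list was high in the same subclasses, but PDGFRA and CSPG4, the other markers of that list, had means of at most 3.20 CPM there. The later linkage enzymes B3GAT3 and B4GALT7 passed the test neither among glutamatergic (adjusted p = 0.374 and 0.233) nor among GABAergic subclasses (adjusted p = 0.454 and 0.837).

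The copolymerase subunits EXT1 and EXT2, which build the heparan sulfate backbone as a complex, differed in how evenly they were distributed. EXT2 kept within 107 to 185 CPM in all sums but the endothelial ones, with Pvalb highest in both animals. Without the endothelial sums (639 and 1504 CPM), EXT1 ranged from 86.8 and 71.8 CPM in microglia to 1441 and 1064 CPM in astrocytes and 1438 and 1148 CPM in L6b. EXTL1, a related glycosyltransferase, was found at 14.9 to 32.9 CPM in glutamatergic sums, 3.95 to 10.7 CPM in GABAergic sums and 2 and 1.21 CPM in astrocytes, so that the neuronal classes did not overlap.

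The NDST enzymes carry out the first heparan sulfate modification, replacing acetyl groups with sulfate. Their 4 genes had different distributions. NDST1 was at 58.1 and 50.5 CPM in oligodendrocytes and 45.3 and 38.3 CPM in microglia, but at 11.8 and 19.3 CPM in OPC and 14.8 and 11.7 CPM in astrocytes, and it stayed within 14.1 to 26.4 CPM in neuronal sums. NDST2 was low throughout and passed none of the 3 tests between subclasses (adjusted p = 0.777, 0.696 and 0.145). NDST3 peaked in L5PT at 770.2 and 1065 CPM, followed by Pvalb at 572 and 599 CPM and IT_C at 452 and 407 CPM, and fell to 14.5 and 11.9 CPM in L6b and 34 and 45.3 CPM in Vip. The L5PT values did not overlap those of Pvalb, the next subclass, nor did Pvalb overlap IT_C.

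NDST3 also differed between types within the Pvalb subclass. Type Pvalb_5, with 110 and 99 nuclei, held 34.2 and 21 CPM, while the other 5 Pvalb types held 546 to 898 CPM. The same type was highest in HS3ST5, at 973 and 855 CPM against 96.9 to 529 CPM, and lowest in XYLT1, at 664 and 655 CPM against 880.5 to 1862 CPM. Within Sst, Sst_4 held 358 and 307 CPM of NDST3 and the other types 40.3 to 107 CPM. Types are finer clusters of the same nuclei, so these values are descriptions without a test.

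NDST4 (ENSMODG00000005217; the files give no coordinates) was high in oligodendrocytes and in a pair of intratelencephalic subclasses. Oligodendrocytes held 189 and 230.1 CPM, IT_A 220.2 and 174 CPM and IT_B 182 and 99.3 CPM. Leaving out the endothelial sums (41.2 and 51.9 CPM), next came OPC (50.7 and 46 CPM) and Lamp5 (39.6 and 47.3 CPM), and IT_C held only 5.17 and 7.3 CPM. OD and IT_A cannot be put in order, because OD was highest in animal 2 and IT_A in animal 1, while IT_B lay below IT_A in each animal and below OD in both. Over the 18 subclass means of log2(CPM + 1), the genes most like NDST4 among 7428 compared were DUSP22 (r = 0.745), URM1 (0.724), PLCL1 (0.718), MAN1B1 (0.707) and SERINC5 (0.702), given as a description over subclasses that share libraries. Their IT_A and IT_C means were 44.0 and 31.25 CPM (DUSP22), 3.32 and 3.83 CPM (URM1) and 714 and 103 CPM (PLCL1). For MAN1B1 these means were 111.5 and 53.5 CPM, for SERINC5 85.2 and 40.45 CPM, and for NDST4 itself 197 and 6.23 CPM.

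**Figure D2:**
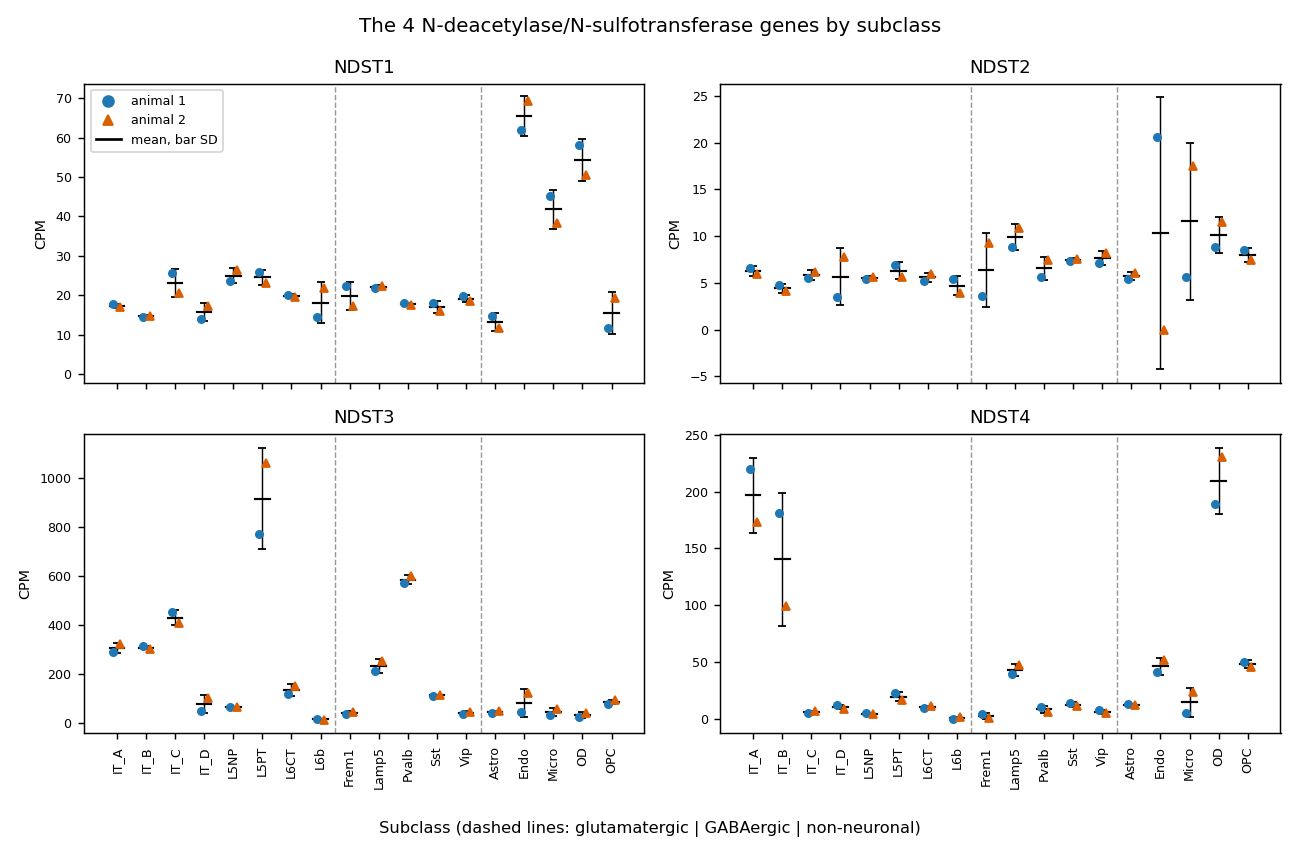
CPM of NDST1, NDST2, NDST3 and NDST4 in each subclass, with circles for animal 1, triangles for animal 2, a line at the mean and a bar of 1 SD. NDST3 stands out in L5PT (770.2 and 1065 CPM) and NDST4 in IT_A, IT_B and OD, each in both animals.

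Heparan sulfate O-sulfotransferases add further sulfates. HS2ST1, the sole 2-O-sulfotransferase of mammals, was found in every subclass and was highest in oligodendrocytes (927 and 1004 CPM). The HS3ST genes, whose products add a rare modification, were more restricted. HS3ST2 was at 889.7 and 629 CPM in L6b, 425 and 353 CPM in L6CT and 268 and 305 CPM in L5NP, against 31.2 and 29.4 CPM in IT_A and at most 19.4 CPM in GABAergic sums. HS3ST5 was highest in oligodendrocytes (1075 and 994 CPM), with 631 and 517 CPM in L6CT and 447 and 379 CPM in Pvalb. HS3ST6 was found in oligodendrocytes (63.6 and 54.7 CPM) and astrocytes (21.7 and 13.4 CPM), with all other sums at or below 3.11 CPM.

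The extracellular sulfatases SULF1 and SULF2, which remove sulfate from finished heparan sulfate chains, were highest in different glutamatergic subclasses. SULF1 was at 188 and 151 CPM in IT_D and at or below 2.26 CPM in every other glutamatergic sum. The next level with both animals above 20 CPM was Frem1, at 25.9 and 32.3 CPM. SULF2 was at 14.1 and 19.7 CPM in IT_D but at 487 and 477 CPM in L5NP, 465 and 345 CPM in L6b, 362 and 278 CPM in L6CT and 252 and 289 CPM in L5PT. Both genes differed among glutamatergic subclasses (adjusted p = 2.23e-16 for SULF1 and 3.55e-18 for SULF2). The L6CT types were not alike, with SULF2 at 632 and 519 CPM in L6CT_3 and 198 and 172 CPM in L6CT_1 (description without a test).

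CSGALNACT1 and CSGALNACT2 both add the first N-acetylgalactosamine that commits a chain to chondroitin sulfate, and they ran in opposite directions between neuronal classes. CSGALNACT1 measured 299.6 and 183 CPM in IT_C, 234 and 193 CPM in L5NP and 9.09 and 4.56 CPM in Pvalb. CSGALNACT2 measured 7.21 and 6.51 CPM in IT_C, 36.3 and 30.2 CPM in Lamp5 and 26.4 and 23.8 CPM in Pvalb. CHSY1, which extends the chain, was highest in microglia (239.5 and 257 CPM) and lowest in oligodendrocytes (48.9 and 45.3 CPM). DSE, the epimerase that turns chondroitin into dermatan sulfate, was highest in OPC in animal 1 and in Sst in animal 2, at 43.1 and 18.7 CPM and 23.4 and 26.6 CPM in animals 1 and 2.

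CHST11 (ENSMODG00000002117), a chondroitin sulfotransferase, was at 3100 and 3028 CPM in OPC, 792 and 692 CPM in astrocytes and 32.7 and 39 CPM in oligodendrocytes, where the small type OD_5 held 587 and 682 CPM and the other types 15.4 to 41.2 CPM. In neurons it was high in IT_D (538 and 412 CPM) and Pvalb (501 and 460.5 CPM), which overlapped, and lowest in IT_C (39 and 62.5 CPM). UST (ENSMODG00000016836), which sulfates the uronic acid, was at 1489 and 1323 CPM in OPC, 736 and 715 CPM in Frem1, 351 and 379.9 CPM in Lamp5 and 283 and 335 CPM in L5NP. Vip, Sst and Pvalb held 9.65 to 23.4 CPM of UST, so Frem1 and Lamp5 were separated from the other GABAergic subclasses in both animals (adjusted p = 7.10e-17). CHST15, which adds another sulfate to form the disulfated E unit, was highest in Vip (289.8 and 371 CPM). The next subclasses were IT_B (101 and 93.3 CPM) and Sst (61.4 and 60.5 CPM), and Lamp5 and Pvalb held 2.33 to 5.73 CPM. CHST7, a chondroitin sulfotransferase, was highest in oligodendrocytes (303 and 262 CPM).

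**Figure D3:**
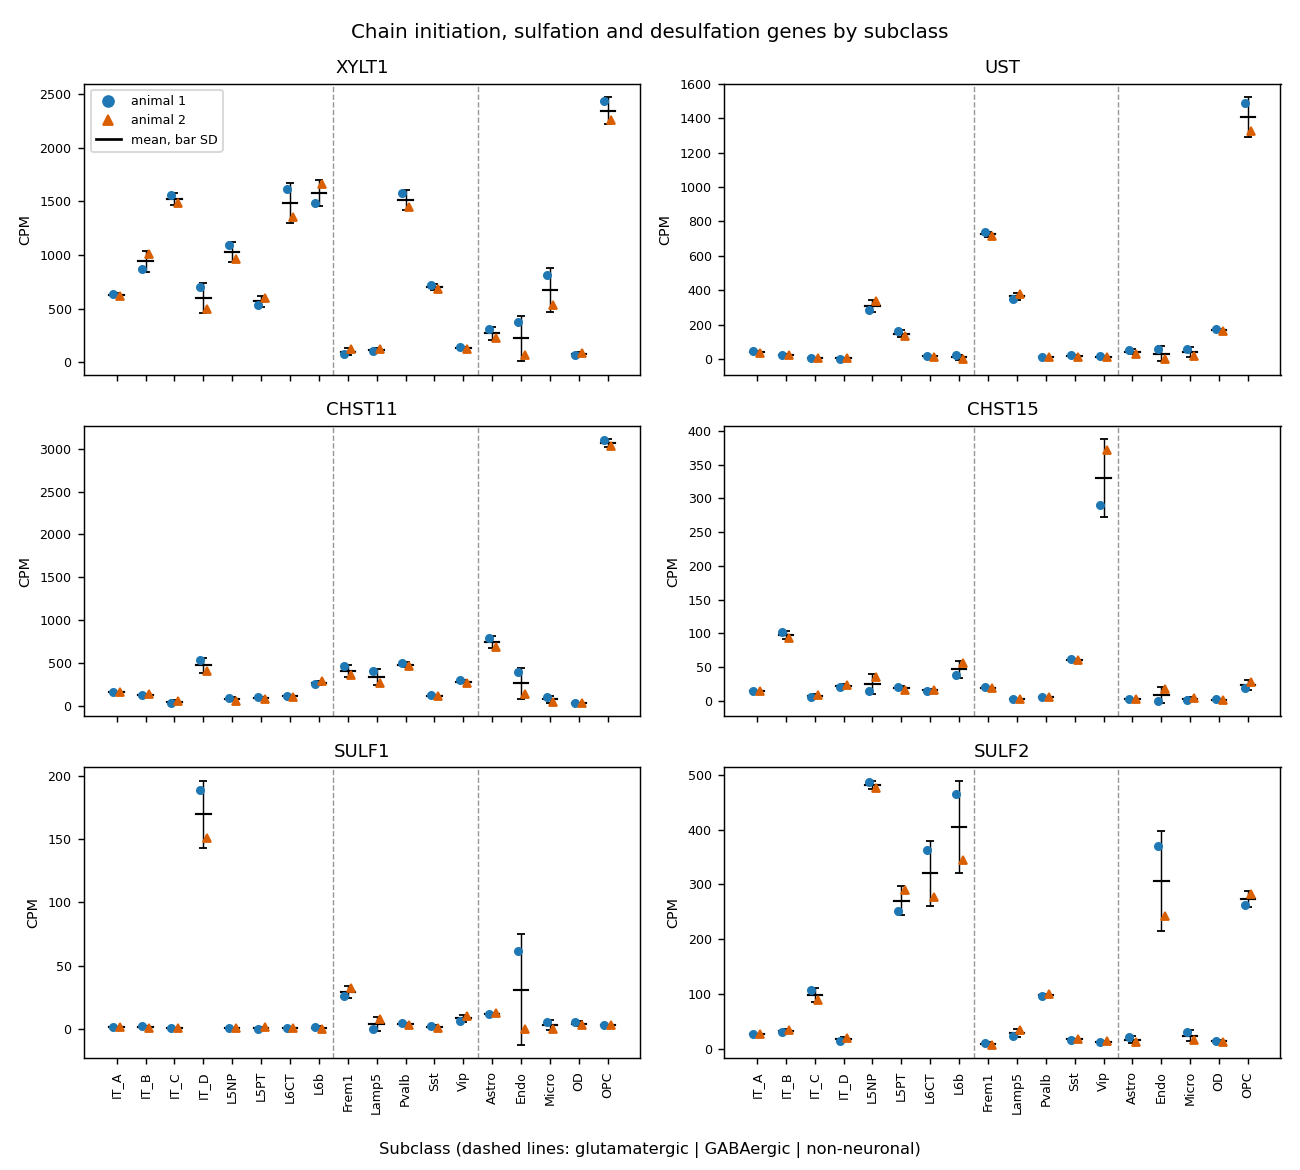
CPM of XYLT1, UST, CHST11, CHST15, SULF1 and SULF2 by subclass, with circles for animal 1, triangles for animal 2, a line at the mean and a bar of 1 SD. OPC holds the highest XYLT1, UST and CHST11 in both animals, Vip the highest CHST15 and IT_D the highest SULF1, while the endothelial bars rest on 29 and 36 nuclei.

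Among the remaining carbohydrate sulfotransferases, CHST8 and CHST9, which sulfate N-acetylgalactosamine on N-linked glycans, varied most among neurons. CHST8 was at 1075 and 447 CPM in L5PT, 438 and 228 CPM in IT_A and 339 and 184 CPM in IT_C, but at 34.4 and 27.2 CPM in L6CT and at most 14.5 CPM in GABAergic sums. Animal 1 was higher than animal 2 in each of the IT, L5NP, L5PT, L6CT and L6b sums. CHST9 was at 411 and 341 CPM in IT_A, 406 and 293 CPM in OPC and 371 and 295 CPM in Lamp5, against 24.9 and 20.4 CPM in IT_C. The glutamatergic marker SV2B also stood higher in Lamp5 than in the other GABAergic subclasses, and its part in the Lamp5 level of CHST9 was not tested. CHST2, which acts on N-acetylglucosamine, was highest in Frem1, at 75.8 and 56.5 CPM, followed by astrocytes at 28.8 and 21.9 CPM.

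B3GAT1 and B3GAT2 make the precursor of the HNK-1 epitope, a sulfated carbohydrate of neural adhesion molecules, and CHST10 adds its sulfate. B3GAT2 was highest in IT_D (493 and 455 CPM) and OPC (329.5 and 318 CPM), with 7.68 and 9.22 CPM in IT_A and 6.7 and 8.2 CPM in Pvalb. B3GAT1 was broader, from 556 and 542 CPM in L6b and 624 and 458 CPM in L5PT to 37.5 and 32 CPM in Sst and 35.8 and 30.3 CPM in microglia. CHST10 stayed within 27.5 to 85.6 CPM in neuronal sums and was lower in microglia (1.89 and 11.2 CPM).

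Hyaluronan is made at the plasma membrane by the HAS enzymes and needs no core protein. HAS2 was at 14.7 and 14.3 CPM in OPC, and no other sum exceeded 1.82 CPM. HAS1 and HAS3 stayed at or below 3.46 and 1.61 CPM. Of the hyaluronidases, which cut hyaluronan, HYAL2 was at 8.27 and 6.88 CPM in astrocytes and at 0 and 17.3 CPM in endothelium, and HYAL3 and HYAL4 were too low to test.

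The study asked how far intratelencephalic subclasses differ, and IT_A against IT_C was compared for this reason. Of 50 genes, 15 differed, 7 higher and 8 lower in IT_A, where 13.4% of all tested genes differed, 7.42% higher and 5.98% lower. The median log2 difference was -0.07 for the 50 genes and 0.01 for all genes. With the animal as a block, 23 of the 50 differed, the 15 included, where 24.0% of all genes did. Sulfotransferases, 21 of the 50 tested genes, went both ways, with 6 of the 7 genes higher and 4 of the 8 genes lower in IT_A. That NDST4 and CHST9 are higher in IT_A was already known from these data. NDST4 was at 220.2 and 174 CPM in IT_A and 5.17 and 7.3 CPM in IT_C (log2 fold change 5.01 ± 0.27, adjusted p = 1.40e-13), and CHST9 at 411 and 341 CPM in IT_A and 24.9 and 20.4 CPM in IT_C (log2 fold change 4.10 ± 0.32, adjusted p = 1.25e-10). UST was at 46.6 and 37.8 CPM in IT_A against 5.49 and 8.58 CPM in IT_C (log2 fold change 2.61 ± 0.30, adjusted p = 1.70e-07), and CHST11 at 158 and 165 against 39 and 62.5 CPM (log2 fold change 1.71 ± 0.23, adjusted p = 1.54e-06). In each of these 4 genes the values of IT_A and IT_C did not overlap. The genes lower in IT_A included SULF2, at 26.2 and 26.1 against 106 and 88 CPM (log2 fold change -1.84 ± 0.17, adjusted p = 3.83e-09), XYLT1 (log2 fold change -1.23 ± 0.21), CSGALNACT1 (-1.08 ± 0.31), HS3ST5 (-1.0 ± 0.21) and HS3ST2 (-0.87 ± 0.17). The call was lost for CSGALNACT1 with DESeq2 (adjusted p = 0.018 by edgeR and 0.0749 by DESeq2) and for HS3ST2 with thinned sums (edgeR adjusted p = 5.98e-04 and 0.254 after thinning). With sums thinned to 500000 UMIs, which left 41 genes tested, 8 of the 15 were called, and 6.55% of all genes. None of the 5 heparan sulfate polymerase, 3 syndecan or 4 galactosyltransferase genes passed the test, the lowest adjusted p among them being 0.156 for B4GALT6, although B4GALT4, B4GALT6 and EXT1 were among the 8 genes added by the block.

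Among the types, described without a test, NDST4 was at 784 and 893 CPM in IT_A_4 (842 and 752 nuclei) and at 18.5 to 81.3 CPM in the other 4 IT_A types, while both IT_C types held 4.86 to 7.84 CPM. CHST9 was at 957 and 952 CPM in IT_A_5 (499 and 483 nuclei) and at 164 to 578 CPM in the others, against 13.9 to 30.4 CPM in IT_C. Every IT_A type thus lay above every IT_C type for both genes, though different types carried the peaks.

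**Figure D4:**
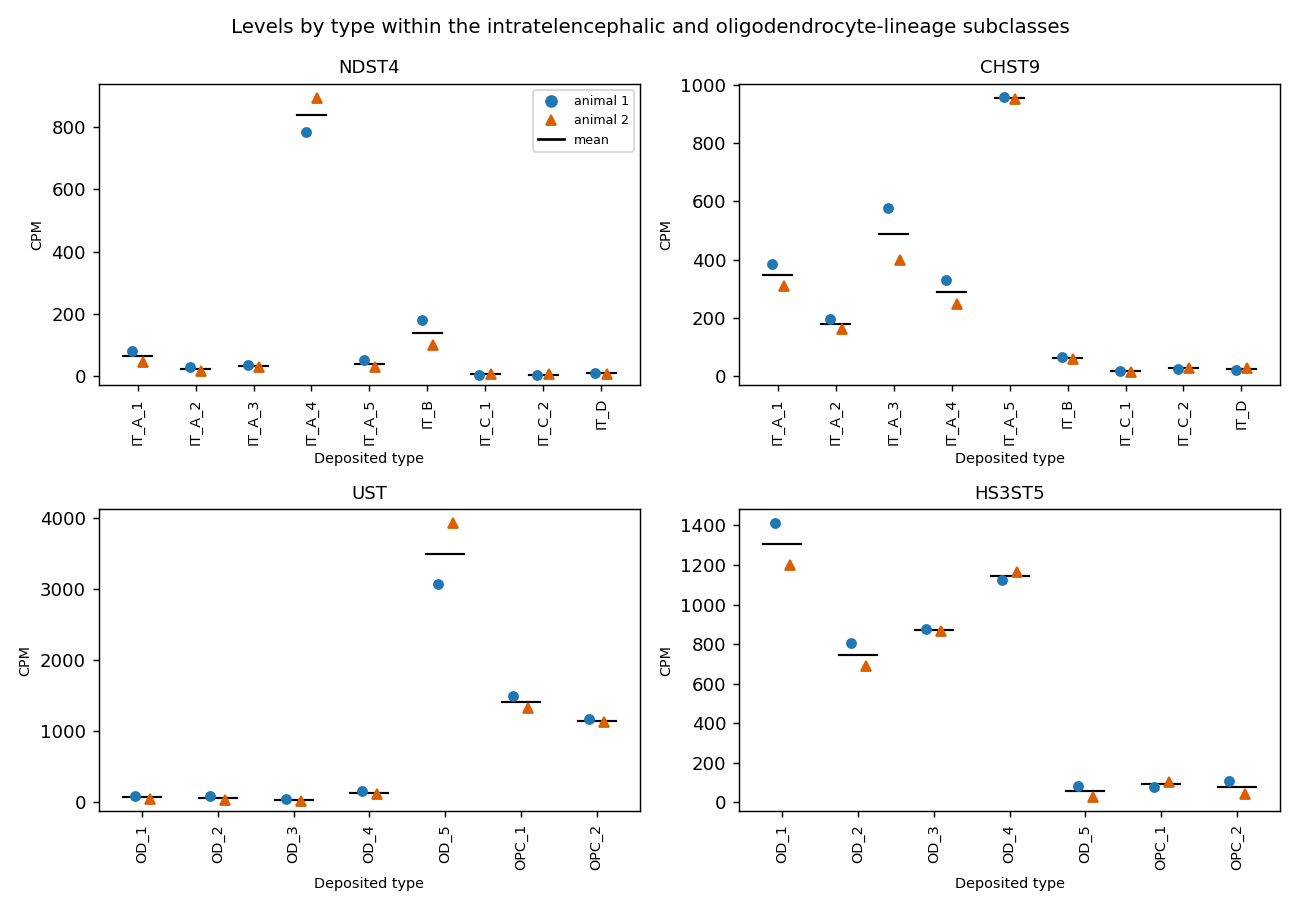
CPM by deposited type for NDST4 and CHST9 in intratelencephalic types and for UST and HS3ST5 in oligodendrocyte and precursor types, with circles for animal 1, triangles for animal 2 and a line at the mean. NDST4 peaks in IT_A_4 (784 and 893 CPM) and CHST9 in IT_A_5, and OD_5 has a UST level above both precursor types.

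The study also asked whether perineuronal nets, whose stain binds chondroitin chains, lie preferentially around parvalbumin-positive neurons. In opossum V1 it saw the stain mostly in deep layers and no enrichment around these neurons. It cited an earlier report of nets around L5 pyramidal neurons in this species. For this reason Pvalb interneurons were compared here with L5PT pyramidal neurons. Where nets lie was not tested with these RNA levels. Of 50 genes, 31 differed, 10 higher and 21 lower in Pvalb, where 30.9% of all tested genes differed, 14.5% higher and 16.4% lower. The median log2 difference was -0.11 for the 50 genes and 0.02 for all genes. Genes higher in Pvalb included CHST11 (501 and 460.5 against 104 and 79.5 CPM, log2 fold change 2.27 ± 0.23, adjusted p = 3.06e-09), XYLT1 (1578 and 1449 against 532 and 599 CPM, log2 fold change 1.29 ± 0.21, adjusted p = 1.14e-05) and CSGALNACT2 (26.4 and 23.8 against 6.18 and 8.77 CPM, log2 fold change 1.62 ± 0.25, adjusted p = 6.95e-06). GPC3 was also higher (log2 fold change 2.41 ± 0.29). Genes lower in Pvalb included CHST8 (7.27 and 5.47 against 1075 and 447 CPM, log2 fold change -7.01 ± 0.44, adjusted p = 2.42e-13), CSGALNACT1 (log2 fold change -4.11 ± 0.40), UST (-3.80 ± 0.30), HS3ST2 (-3.80 ± 0.21) and GPC1 (-3.41 ± 0.27). Of the 11 tested genes of chondroitin polymerization and sulfation, CSGALNACT2, CHST7 and CHST11 were higher and CSGALNACT1, DSE, CHST15 and UST lower in Pvalb. All 31 had the same direction in both animals. CHST7 was called by the main test (log2 fold change 1.15 ± 0.43, adjusted p = 0.0408) but lost the call with DESeq2 (adjusted p = 0.112), with the sums of the neuronal classes alone (0.0534) and with thinned sums (0.296). Thinned to 500000 UMIs per sum, 18 of 41 tested genes were called, 17 of them among the 31, and 19.1% of all genes. The summed OPC markers were also higher in Pvalb (851.5 and 909.9 CPM) than in L5PT (6.49 and 13.2 CPM), through SOX6, whereas PDGFRA and CSPG4 were at means of 2.78 and 0.227 CPM in Pvalb.

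OPC give rise to mature oligodendrocytes, and the lineage was compared as OPC against OD. Of 50 genes, 32 differed, 23 higher and 9 lower in OPC, where 38.0% of all tested genes differed, 20.2% higher and 17.9% lower. The median log2 difference of the 50 genes was 0.66, against -0.00 over all genes, and under DESeq2 the latter shifted to 0.13. Of the 11 tested genes of chondroitin polymerization and sulfation, 8 were higher in OPC and only CHST7 was lower (log2 fold change -1.90 ± 0.39). The higher ones included CHST11 (log2 fold change 6.25 ± 0.28, adjusted p = 5.42e-17), DSE (43.1 and 18.7 against 0.614 and 1.05 CPM, log2 fold change 5.08 ± 0.46, adjusted p = 3.34e-10), CSGALNACT1 (187 and 146 against 9.62 and 12 CPM, log2 fold change 3.78 ± 0.42, adjusted p = 1.04e-08). XYLT1 was higher as well (log2 fold change 4.79 ± 0.25, adjusted p = 1.08e-15), and so was B3GAT2 (log2 fold change 5.76 ± 0.41, adjusted p = 1.47e-12). Of the 10 tested heparan sulfate sulfotransferases, 5 were lower in OPC. These were HS3ST5 (78.2 and 102 against 1075 and 994 CPM, log2 fold change -3.70 ± 0.24, adjusted p = 1.73e-13), HS3ST6 (log2 fold change -4.77 ± 0.50), HS2ST1 (-2.43 ± 0.21), NDST4 (-2.29 ± 0.25) and NDST1 (-2.01 ± 0.20). NDST3 alone among the 10 was higher in OPC (log2 fold change 1.28 ± 0.26). SULF2 was at 263 and 283 CPM in OPC against 14.3 and 11.5 CPM in oligodendrocytes (log2 fold change 4.21 ± 0.22). HYAL2 was called higher, but its animals went in opposite directions. HAS2 gave no UMI in oligodendrocytes of either animal, which allows up to 0.614 and 0.785 CPM there, so OPC were at least 23.9-fold and 18.2-fold higher in animals 1 and 2.

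Type OD_5 departed from the other oligodendrocyte types. It comprised 34 and 28 nuclei, with summed oligodendrocyte markers at 9770 and 8384 CPM and summed OPC markers at 2586 and 3072 CPM, where the other OD types had OPC markers at 10.1 to 29.3 CPM. UST was at 3074 and 3931 CPM in OD_5, above OPC_1 (1497 and 1328 CPM) and OPC_2 (1169 and 1130 CPM) and above the other OD types (18 to 157 CPM). HS3ST5 was at 83.9 and 26.6 CPM in OD_5 and 688 to 1412 CPM in the others. NDST4, in contrast, was at 267 and 230.2 CPM in OD_5, close to the 159 to 252 CPM of the other OD types and above the 52.1 and 46.8 CPM of OPC_1. Markers of both subclasses were present in OD_5, and the part of mixed droplets was not tested.

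**Figure D5:**
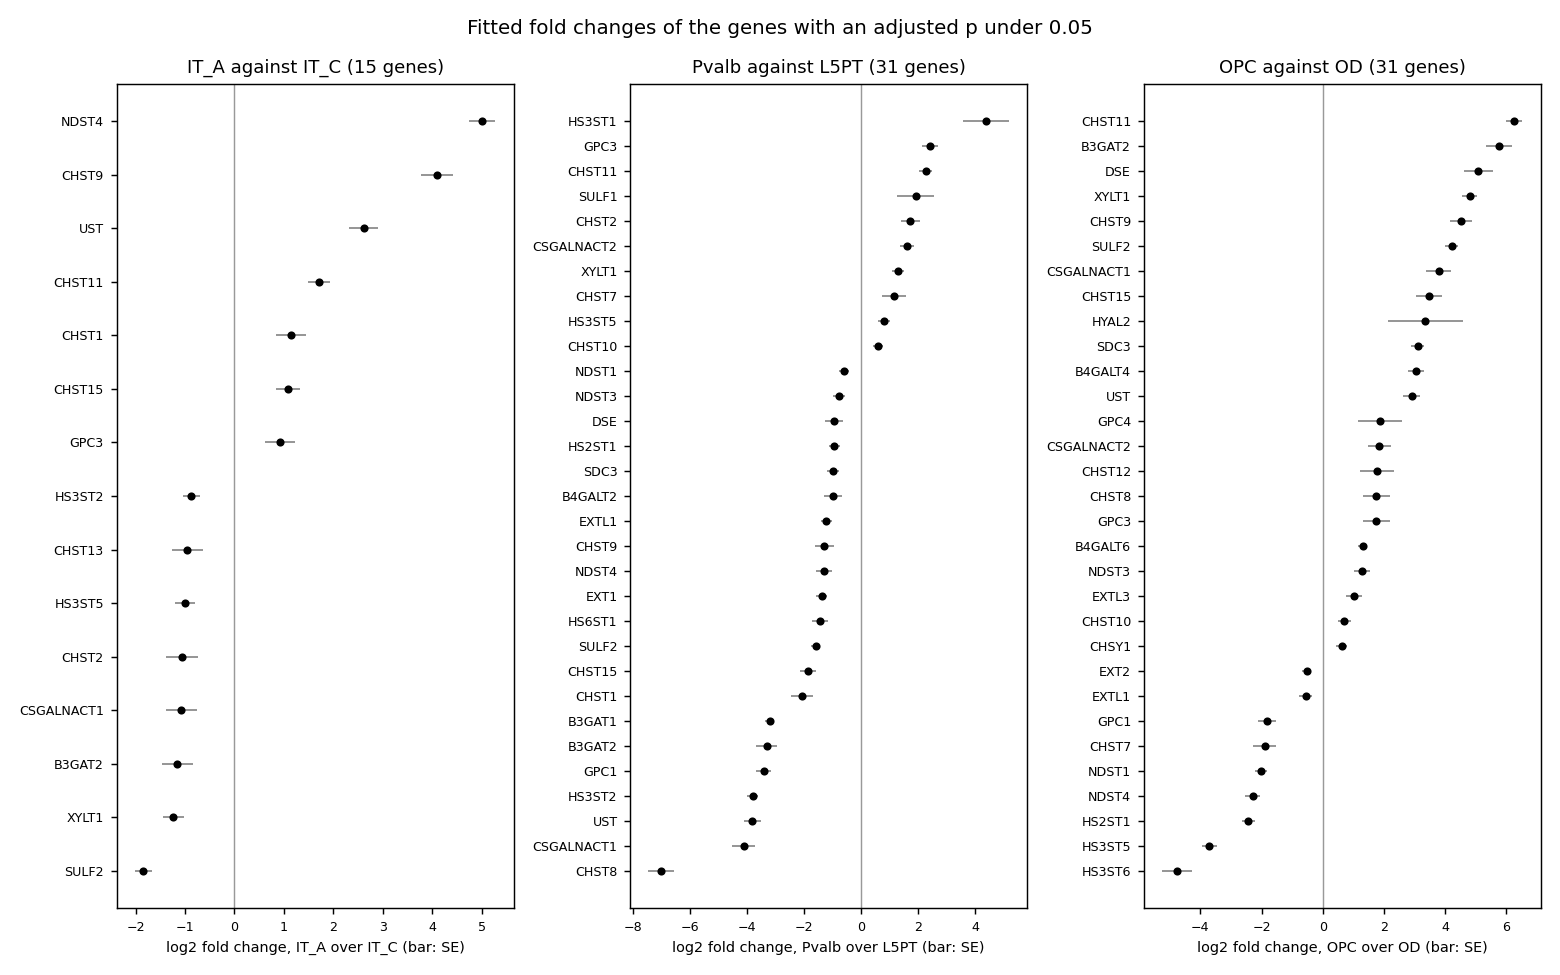
Log2 fold changes with SE (edgeR) of the genes that differed between IT_A and IT_C, Pvalb and L5PT, and OPC and OD, on separate axes. HAS2, at 0 in oligodendrocytes, is left out of the third panel. NDST4 leads the first panel, CHST8 is the lowest in the second, and CHST11 leads the third.

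Glutamatergic and GABAergic neurons differed in 31 of 50 genes, 20 higher and 11 lower in glutamatergic subclasses, where 39.9% of all genes differed, 20.5% higher and 19.4% lower. The median log2 difference was 0.29 for the 50 genes and -0.01 for all genes. Higher genes included HS3ST2 (log2 fold change 3.90 ± 0.11, adjusted p = 2.51e-21), CSGALNACT1 (log2 fold change 2.80 ± 0.18, adjusted p = 1.56e-13), SULF2 (2.46 ± 0.11) and EXTL1 (1.96 ± 0.13). Lower genes included GPC3 (log2 fold change -2.63 ± 0.18, adjusted p = 6.48e-13), CHST2 (-1.59 ± 0.16), CSGALNACT2 (-1.15 ± 0.13) and CHST11 (-1.03 ± 0.09). SULF1 was called lower in glutamatergic neurons (log2 fold change -1.59 ± 0.33, adjusted p = 2.66e-04) in a contrast that averages logarithms over subclasses, whereas its plain mean CPM over subclasses was higher in glutamatergic neurons (24.5 and 19.7 CPM) than in GABAergic ones (7.81 and 11 CPM), IT_D being the only glutamatergic subclass above 2.26 CPM. It lost the call in thinned sums (adjusted p = 1.00).

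Neurons were also compared with the non-neuronal subclasses, which include the small endothelial sums. Of 50 genes, 28 differed, 19 higher and 9 lower in neurons, where 44.7% of all genes differed, 30.2% higher and 14.6% lower. All genes together had a median log2 difference of 0.44, which became 0.07 without the endothelial subclass, an alternative chosen after seeing the data. Without it, 34 of 51 genes differed, 21 higher and 13 lower in neurons, against 59.5% of all genes, 31.3% higher and 28.2% lower, and 27 genes were called in both fits. The contrast averages logarithms over subclasses, and plain mean CPM did not always follow it: HS3ST5, called higher in neurons (log2 fold change 0.68 ± 0.12, adjusted p = 1.04e-05), had a lower mean CPM in neurons in both animals (256.1 against 308.3 and 203.5 against 292.5 CPM), and EXT2, XYLT1, CHST1 and B4GALT4 did in 1 animal. Of the 28 genes called with the endothelial sums, 26 had the same direction in both animals. In the fit without the endothelial sums, HS3ST2 (log2 fold change 2.45 ± 0.15, adjusted p = 2.38e-14), CHST15 (2.46 ± 0.22, adjusted p = 1.06e-10) and B4GALT6 (1.69 ± 0.07, adjusted p = 1.38e-17) were higher in neurons. In the same fit without them, GPC4 (-2.95 ± 0.35, adjusted p = 5.38e-08), SDC2 (-1.61 ± 0.21, adjusted p = 1.75e-07) and UST (-1.81 ± 0.16, adjusted p = 1.44e-10) were lower. GPC1 was higher in neurons by 3.46 ± 0.42 with the endothelial sums, where it was at 0, and by 1.41 ± 0.16 without them. DSE was called with them (log2 fold change 2.15 ± 0.81, adjusted p = 0.0311) and not without them (0.51 ± 0.22, adjusted p = 0.0525), nor with the animal as a block (adjusted p = 0.0760).

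Other genes of the pathway were counted from 4 lists, and the share of all genes stated above for each comparison is repeated beside the counts. Of 14 tested proteoglycan cores and link proteins, 12 differed between OPC and oligodendrocytes, 10 higher in OPC (38.0% of all genes). ACAN (aggrecan) was at 196 ± 23.4 CPM (SD, n = 2) in OPC and 1.46 ± 0.902 CPM in oligodendrocytes, PTPRZ1 at 2790 ± 129 and 26.6 ± 5.74 CPM, and HSPG2 (perlecan) in the other direction at 1.17 ± 0.984 and 68.7 ± 5.31 CPM. In Pvalb against L5PT 6 of the 14 differed, 4 higher and 2 lower (30.9% of all genes): SPOCK3 was at 3017 ± 231 against 94.6 ± 18.5 CPM, BCAN (brevican) at 23.2 ± 1.38 against 3.35 ± 1.83 CPM, and the link protein HAPLN4 at 51.7 ± 1.72 against 16.8 ± 2.05 CPM. ACAN, the net core protein and named here after its values were seen, had 2.03 ± 0.624 CPM in Pvalb, while L5PT held 0.767 ± 0.861 CPM, and the difference did not pass the test (adjusted p = 0.113). Between IT_A and IT_C 4 of the 14 differed, 3 higher and 1 lower in IT_A (13.4% of all genes). Of 13 genes for sugar and sulfate donors and stub trimming, 7 differed between glutamatergic and GABAergic neurons, all lower in glutamatergic ones (39.9% of all genes), with PXYLP1, a phosphatase of the linkage xylose, at 135 ± 12.7 CPM in Frem1 and 17.7 ± 1.23 CPM in IT_A. Of these 13, 1 differed between IT_A and IT_C (13.4% of all genes), 7 between Pvalb and L5PT (30.9%), and 5 between OPC and oligodendrocytes (38.0%). Of 16 breakdown genes 13 differed between glutamatergic and GABAergic neurons, 5 higher and 8 lower in glutamatergic ones (39.9% of all genes). CEMIP2, a hyaluronan-degrading membrane protein, was at 149 ± 1.2 CPM in L6CT and 14.9 ± 1.19 CPM in Vip. Of these 16, 4 differed between IT_A and IT_C (13.4% of all genes), 9 between Pvalb and L5PT (30.9%), and 9 between OPC and oligodendrocytes (38.0%). Of 15 receptors and partners 11 differed between OPC and oligodendrocytes, 9 higher and 2 lower in OPC (38.0% of all genes). TNR (tenascin-R) was at 1212 ± 72.1 CPM in OPC against 57.3 ± 13.3 CPM in oligodendrocytes. Of these 15, 6 differed between IT_A and IT_C (13.4% of all genes), 9 between Pvalb and L5PT (30.9%), and 11 between glutamatergic and GABAergic neurons (39.9%). Of the 14 cores and link proteins, 6 differed between glutamatergic and GABAergic neurons, 1 higher and 5 lower in glutamatergic ones (39.9% of all genes). Between neurons and non-neuronal subclasses, 9 genes of each of the 4 lists differed (44.7% of all genes).

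Between the animals, 26 genes exceeded 20 CPM over all labelled nuclei, and none of them differed 2-fold, where 0.700% of 6571 genes at that level did. The ratio of animal 2 to animal 1 ran from 0.572 for CHST7 to 1.48 for GPC1. The library ranges of the animals did not overlap for 21 of the 26, where 81.1% of genes showed the same. CHST8 was at 277 and 272 CPM in the libraries of animal 1 and at 158.5 and 159 CPM in those of animal 2. GPC1 was at 79.2 and 79.0 CPM in animal 1 and 121 and 114 CPM in animal 2, and it was higher in animal 2 in 15 of 18 subclasses. Age, experimenter and individual cannot be told apart here, and no test was made with 1 animal on each side.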

How the data were processed

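Single-nucleus 3′ RNA libraries of V1 from 2 opossums (2 libraries each) were analysed. The authors made the deposited counts of UMIs per gene and nucleus with Cell Ranger (6.1.1 per the labels, 7.1.0 in the matrix headers), introns included, on the opossum genome ASM229v1 with an Ensembl annotation whose gene ends were extended by up to 5 kb, which can move reads between neighbouring genes. They also deposited the quality calls, doublet calls and the class, subclass and type of each nucleus, used here as given. The assembly of the gene table used here for names differs from that build, so no coordinates are given. There, 54 of the 56 genes were found and 14 of them overlap another gene (B3GAT2, CHST7, CHST8, CHSY1, EXTL3, GPC3, GPC4, HAS2, HS3ST1, HS3ST5, HS6ST1, HYAL3, UST and XYLT1), so their counts are less certain.

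For each animal and subclass the counts of all labelled nuclei were added, and the 36 sums were tested in a single fit with edgeR 4.0.16 in R 4.3.3 (TMM, filterByExpr, quasi-likelihood test, Benjamini-Hochberg over 17227 genes, threshold 0.05), and fold changes are given with SE. CPM were computed from the total counts of each sum. Classes were contrasted with each subclass weighted equally. The script was tested on simulated data. The 36 sums come from the same 2 animals, so an animal's sums are paired; over 153 subclass pairs, deviations from the subclass mean correlated at 0.000146 to 0.558 (median 0.105). The fit with the animal as a block was an alternative, beside DESeq2 1.42.0, RLE size factors, other filters, thinned sums, doublets removed, the B libraries removed, and fewer sums. Doublets that the authors' caller marked but kept were left in.

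The genes, role groups and lists were chosen with earlier results of these data known, and the higher NDST4 and CHST9 in IT_A had already been seen. Genes were named by rule: for each contrast the 5 largest called changes in each direction among genes with at least 20 CPM and the same direction in both animals, for each test across subclasses the 6 widest ranges, the 3 highest levels per role group, and all NDST, SULF, GPC and SDC genes. Types were singled out after their values were seen. For lists of pathway partners at most 3 genes per list and comparison are named by the first of these parts. The floor of 3 UMIs covers counting error only.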

Additional observations from a re-analysis of the deposited data

Results flagged for a closer look

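GPC3 gave a signal in nuclei that the comparisons did not use. In non-neuronal nuclei that the authors set aside as ambiguous (138 nuclei in each animal), GPC3 had 203 and 124 UMIs, or 518 and 318 CPM, a mean of 418 CPM. The highest labelled subclass in each animal was at 124 and 141 CPM. Among all 56 genes, GPC3 alone was at least 2-fold above its highest labelled subclass in both animals with at least 30 UMIs in each. What these nuclei are was not tested.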

How the results depend on the processing

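The number of called genes stayed within 1.5 times the main count in 74 of 77 alternatives. The exceptions were IT_A against IT_C, with 23 genes under the replicate block and 8 with sums thinned to 500000 UMIs (15 in the main test), and Pvalb against L5PT, with 18 in thinned sums (31 in the main test). Thinning tests 41 of the genes, on fewer counts. The block, in which the animal pairs the sums, moved no other count by that much. It ended the calls of CHST9 and DSE in neurons against non-neuronal and added 8 genes in IT_A against IT_C (B4GALT4, B4GALT6, CHST8, CHSY1, EXT1, HS6ST1, NDST1 and NDST3). For the 67 results of genes named by the rule, 706 alternatives gave 639 with the same call and direction, 18 below the threshold, 49 that moved by more than the SE, and 0 reversed. The 49 come from values of 1 animal without a test. CSGALNACT1 in IT_A against IT_C lost its call with DESeq2 (adjusted p = 0.0749) and HS3ST2 with thinning (0.254), DSE in neurons against non-neuronal lost it in 6 alternatives (0.0525 to 0.307), and without the B libraries NDST4 (0.155), SDC2 (0.0964), CSGALNACT2 (0.0982) and GPC4 (1.00) lost it in that contrast. The cause was not tested. The number of genes called in that contrast was 19 without the B libraries, 25 with RLE factors and 32 with DESeq2 (28 in the main test), beside 37.6%, 43.2%, 53.9% and 44.7% of all genes, and the median of all genes was 0.44, 0.34 with RLE factors and 0.01 with DESeq2. Leaving out an animal leaves no residual degrees of freedom, so no counts of calls can be given without replicate 1 or 2. Endothelial, L6b and IT_D sums limit what depth allows: 3 UMIs equal up to 61.8 CPM in endothelium.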
